A study of Homo sapiens with 8 samples.

Results

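ATF4, DDIT3, ASNS, PSAT1, SHMT2, MTHFD2, DDIT4, SESN2, TRIB3 and CHAC1 are 10 genes of the amino acid branch of the integrated stress response, the programme run by the transcription factor ATF4. They were chosen by gene symbol, as every intron row that carries 1 of these symbols. They made up 10 of the 15902 genes and 49 of the 142206 introns in the tables.

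8 RNA sequencing libraries were made from SUM159, a human line grown from a triple-negative breast cancer. Cells had received H3B-8800, which targets the SF3b complex by which the spliceosome recognises the branch site of an intron, or its solvent DMSO, for 12 h. Polyadenylated RNA was sequenced either after pull-down with J2, which recognises double-stranded RNA, or directly as input. The 4 groups were J2 RNA with H3B-8800, J2 RNA with DMSO, input RNA with H3B-8800 and input RNA with DMSO, each with 2 biological replicates. All of them came from the same cell line, and none was an immunoprecipitation with a control antibody, so J2 against input here means recovery relative to input and not a proven double-stranded part.

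When amino acids run short or another stress strikes, a kinase phosphorylates the initiation factor eIF2, general translation slows, and translation of the ATF4 mRNA increases. ATF4 protein then switches on genes for amino acid synthesis and uptake, for one-carbon metabolism and for feedback, among them the other 9 genes described here. SF3b is needed to remove most introns, and inhibitors that bind it are known to leave introns in many mRNAs.

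The depth used for scaling lay between 47000000 and 57000000 reads per library. Over all listed introns, intronic reads made up 13.0% and 12.5% in J2 RNA with H3B-8800 and 3.63% and 3.98% in J2 RNA with DMSO. The share was 13.0% and 10.3% in input with H3B-8800 and 3.81% and 3.83% in input with DMSO. Of 10 mesenchymal markers, 9 reached 1 RPM (1 read per 1000000) of spliced reads in both libraries of every group, against 3 of 10 luminal markers and 1 of the 4 listed immune markers. The summed mesenchymal level ranged from 845 to 853 RPM in J2 RNA with H3B-8800 and from 1010 to 1058 RPM in J2 RNA with DMSO. It ranged from 1002 to 1082 RPM in input with H3B-8800 and from 949 to 970 RPM in input with DMSO.

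3 quantities were read from the tables. Intronic reads lie inside an intron. Spliced reads cross it, and both were summed over a gene's listed introns. The ratio is log2 of intronic reads + 1 over spliced reads + 1, so it rises when more of a gene's RNA keeps its introns. Reads were tested with edgeR's quasi-likelihood test and the ratio with limma, and a gene was called at an adjusted p (Benjamini-Hochberg over all genes tested) under 0.05. Fold changes are log2 values ± SE on depth-scaled reads. In such bulk libraries, fewer cells with a transcript and less of it per cell cannot be told apart, and with 2 libraries against 2 an exact permutation test could not go below p = 0.333, so the calls rest on the spread shared over all genes.

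H3B-8800 changed spliced reads of 8 of the 10 genes in the input. ATF4, TRIB3 and DDIT3 rose, while ASNS, SHMT2, CHAC1, DDIT4 and SESN2 fell. Among all 8461 genes tested, 70.4% changed, 21.8% upwards and 48.7% downwards, so 8 of 10 is near what was seen across the transcriptome. The median log2 change was -0.18 for the 10 genes and -0.38 for all genes. In J2 RNA, 1 gene (TRIB3) rose and 5 fell (SHMT2, ASNS, MTHFD2, CHAC1 and DDIT4), against 34.6% of all genes upwards and 39.5% downwards (74.1% in either direction). Here the median was -0.20 for the 10 genes and -0.03 for all genes.

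These directions in the input depend on the scale. Median-of-ratios scaling, which centres the typical gene, put the median of all genes at 0.03 in place of -0.38, and 3178 genes rose and 2914 fell, against 1841 and 4118 on depth. With it 5 of the 10 genes rose and 2 fell. MTHFD2 and PSAT1 then rose by 0.37 and 0.52, while DDIT4 (0.016) and SESN2 (0.084) turned sign without passing the test. ATF4, DDIT3 and TRIB3 rose and ASNS and SHMT2 fell on both scales. In J2 RNA the split of the 10 genes was 1 up and 5 down on both scales.

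**Figure D1:**
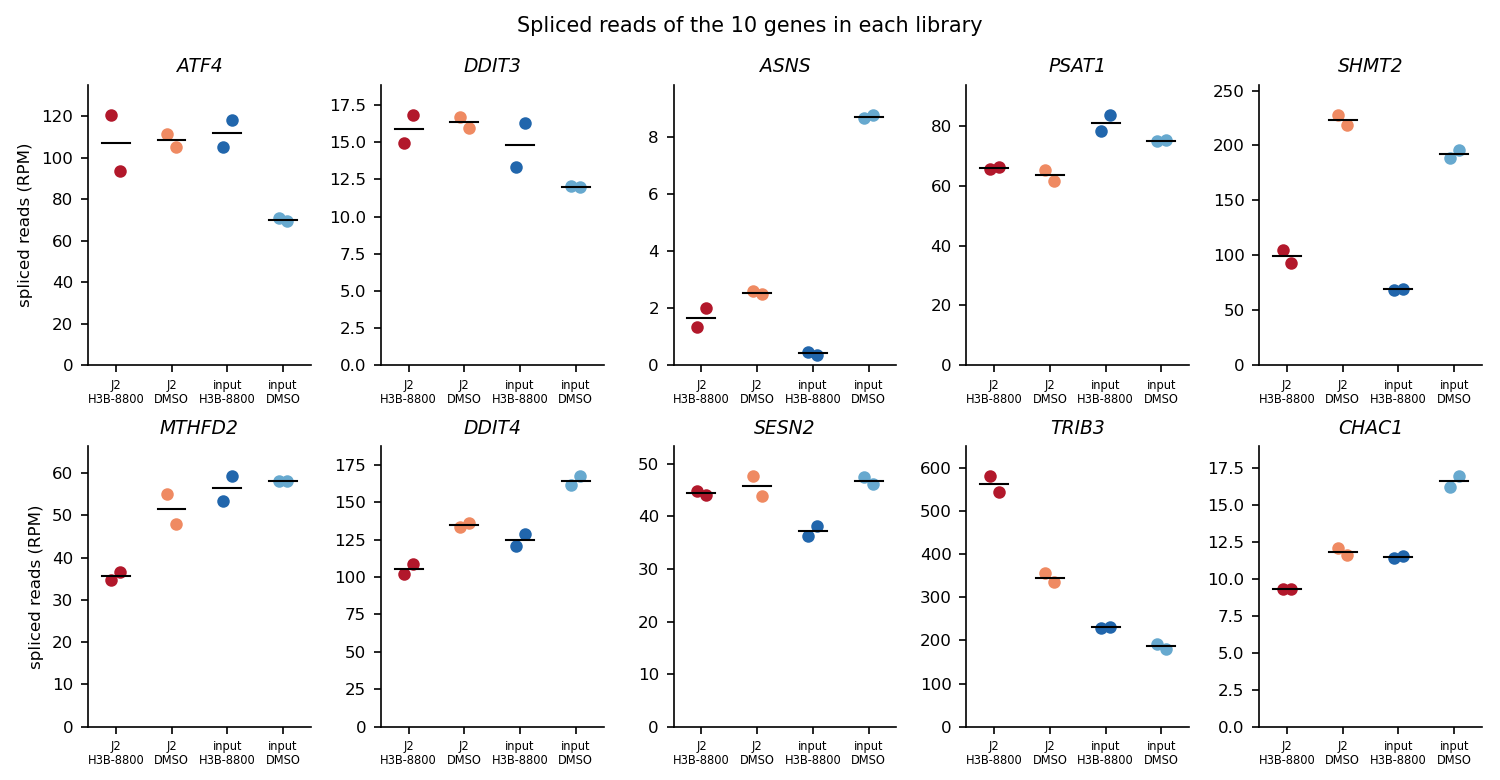
Spliced reads of each gene (y axis, RPM, each panel with its own scale from 0) in the 8 libraries, grouped by RNA and treatment. Points are libraries and lines are means of 2; ASNS input with H3B-8800 lies lowest of its panel at 0.468 and 0.354 RPM, and TRIB3 J2 RNA with H3B-8800 lies highest of its panel at 582 and 545 RPM.

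ATF4, the factor at the centre of the response, has 1 listed intron of 101 bases inside its coding sequence (chr22:39521672-39521772, GRCh38, plus strand). Its spliced reads were 121 and 93.5 RPM in J2 RNA with H3B-8800 and 112 and 105 RPM in J2 RNA with DMSO. They were 105 and 118 RPM in input with H3B-8800 and 70.9 and 69.7 RPM in input with DMSO. The 2 input libraries with DMSO lay below the other 6. The drug effect was 0.67 ± 0.11 in the input (edgeR adjusted p = 0.00035) and was not called in J2 RNA (adjusted p = 0.89), and J2 exceeded input by 0.63 ± 0.11 with DMSO (adjusted p = 0.00082) but was not called with H3B-8800 (adjusted p = 0.66). The test of that difference between the drug effects in J2 RNA and in the input gave -0.69 ± 0.15 (adjusted p = 0.0046).

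This short intron of ATF4 held the largest drug effect on intronic reads of the 7 genes tested for them on depth, whereas with TMM or median-of-ratios scaling the fall of MTHFD2 was larger (-4.67 in J2 RNA and -3.77 in the input with median-of-ratios scaling). It had 167 and 158 intronic reads in J2 RNA with H3B-8800 and 2 and 5 in J2 RNA with DMSO. It had 138 and 120 in input with H3B-8800 and 7 and 6 in input with DMSO. No drug library overlapped a DMSO library. ATF4 passed the filter for intronic reads through the drug libraries alone, so a rise was favoured by the selection. The change was 5.58 ± 0.37 in J2 RNA (edgeR adjusted p = 1.1e-13) and 4.35 ± 0.34 in the input (adjusted p = 5.4e-12), and it stayed at 3.46 and 2.68 when intronic reads were scaled to the typical gene. Even so the intron was spliced in most reads, since intronic reads were 2.69% and 3.09% of the total in J2 RNA with H3B-8800 and 2.72% and 2.07% in input with H3B-8800. ATF4 has 4 annotated pseudogenes, and reads shared with copies of a gene are uncertain.

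DDIT3 (CHOP), a transcription factor induced by ATF4, is known to promote cell death under lasting stress. Its spliced reads were 15.0 and 16.9 RPM in J2 RNA with H3B-8800 and 16.7 and 16.0 RPM in J2 RNA with DMSO. They were 13.4 and 16.3 RPM in input with H3B-8800 and 12.0 and 12.0 RPM in input with DMSO. The 2 input groups did not overlap, whereas the J2 groups did. These sums join 2 listed introns that moved apart with the drug. Mean spliced reads of intron 1 were 2.40 RPM in input with H3B-8800 and 3.96 RPM in input with DMSO. Those of intron 3 were 12.4 and 8.05 RPM. In J2 RNA, intron 1 had 3.17 RPM with H3B-8800 and 5.67 RPM with DMSO, and intron 3 had 12.8 and 10.7 RPM. The rise in the input was 0.30 ± 0.11 (edgeR adjusted p = 0.032), J2 exceeded input by 0.44 ± 0.11 with DMSO (adjusted p = 0.0061), and neither the drug effect in J2 RNA (adjusted p = 0.77) nor J2 over input with H3B-8800 (adjusted p = 0.45) was called. With TMM and median-of-ratios scaling the rise of DDIT3 in the input was 0.58 and 0.71 (adjusted p = 0.00018 and 3.8e-05), and the difference of the 2 drug effects, J2 RNA less input, was called, at -0.54 and -0.68 (adjusted p = 0.0049 and 0.0014). On depth the rise in the input fell to 0.15 without input H3B-8800 replicate 2 and was not called (adjusted p = 0.24). It was not called either without input DMSO replicate 1 (0.31), input DMSO replicate 2 (0.30) or J2 DMSO replicate 1 (0.30).

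Intronic reads of DDIT3 ran against those of ATF4. They numbered 15 and 11 in J2 RNA with H3B-8800 and 17 and 25 in J2 RNA with DMSO. They numbered 53 and 35 in input with H3B-8800 and 77 and 82 in input with DMSO. Every J2 library lay below every input library. J2 was lower than input by -1.87 ± 0.41 with H3B-8800 (edgeR adjusted p = 0.00054) and by -2.07 ± 0.36 with DMSO (adjusted p = 6.2e-05). The difference between drug and DMSO was -0.79 ± 0.33 in the input (adjusted p = 0.027), where 78.3% of 3992 genes rose and 6.51% fell, and it was not called in J2 RNA (adjusted p = 0.22). Scaled to the typical gene, the fall in DDIT3 was called in both, at -2.73 in J2 RNA and -2.47 in the input with median-of-ratios scaling (adjusted p = 4.4e-06 and 1.4e-07) and at -2.75 and -2.44 with TMM scaling. Most of these reads, 80.8% to 89.8% by group, lay in intron 1 in the 5′ untranslated region (chr12:57517754-57520417, GRCh38, minus strand, 2664 bases), which also holds the microRNA gene MIR616 on the same strand. Without that intron no DDIT3 intronic difference was called (adjusted p = 0.28 for the drug in the input, 0.11 for J2 against input with DMSO and 0.55 with H3B-8800). The fall in the input fell to -0.51 without input H3B-8800 replicate 2 (adjusted p = 0.24).

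ASNS, the enzyme that makes asparagine and a classical ATF4 target, had the largest change of spliced reads among the 10 genes. Its 9 listed introns together held 67 and 106 spliced reads in J2 RNA with H3B-8800 and 138 and 142 in J2 RNA with DMSO. They held 22 and 17 in input with H3B-8800 and 416 and 449 in input with DMSO. The 4 groups did not overlap, and the drug libraries of the input were lowest and its DMSO libraries highest. The change with the drug was -4.40 ± 0.25 in the input (edgeR adjusted p = 2.6e-07) and -0.61 ± 0.21 in J2 RNA (adjusted p = 0.026). J2 was above input by 2.02 ± 0.27 with H3B-8800 (adjusted p = 0.00016) and below it by -1.78 ± 0.20 with DMSO (adjusted p = 6.9e-05). The difference of the 2 drug effects was 3.80 ± 0.33 (adjusted p = 6.9e-05).

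The loss was spread over the listed introns, which are introns 5 to 13 of 13 annotated, and those before intron 5 were not listed. In input with H3B-8800 the listed introns held only 39 spliced reads in all. Mean spliced reads per ASNS intron reached at most 0.105 RPM (intron 5) in input with H3B-8800, whereas the lowest intron of input with DMSO (intron 7) held 0.697 RPM. In J2 RNA the same introns ranged from 0.135 to 0.297 RPM with H3B-8800 and from 0.0972 to 0.513 RPM with DMSO. Intronic reads were few, at 5 and 8 in J2 RNA with H3B-8800, 2 and 4 in J2 RNA with DMSO, 16 and 18 in input with H3B-8800, and 10 and 10 in input with DMSO. They did not pass the filter for intronic reads, and the summed input ratio of 1.77 (95% exact counting interval 0.991 to 3.25) spans 1. The intronic to spliced ratio rose by 5.12 ± 0.42 in the input (limma adjusted p = 4.3e-05), where spliced reads fell. It rose by 1.65 ± 0.42 in J2 RNA (adjusted p = 0.011), a value that became -0.15 with median-of-ratios scaling and 1.30 without J2 DMSO replicate 1 (adjusted p = 0.06). The fall of spliced reads in J2 RNA became -0.35 without J2 H3B-8800 replicate 1 (adjusted p = 0.12), and it was not called without either J2 DMSO replicate or either input DMSO replicate. ASNS has 4 annotated pseudogenes.

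PSAT1, which makes phosphoserine for serine synthesis, was steady in spliced reads summed over its introns. They were 65.7 and 66.3 RPM in J2 RNA with H3B-8800 and 65.4 and 61.7 RPM in J2 RNA with DMSO. They were 78.3 and 83.9 RPM in input with H3B-8800 and 75.1 and 75.3 RPM in input with DMSO. With the drug the change was not called in J2 RNA (edgeR adjusted p = 0.39) or in the input (adjusted p = 0.11; a rise of 0.52 with median-of-ratios scaling), and every J2 library lay below every input library. J2 was lower by -0.30 ± 0.06 with H3B-8800 (adjusted p = 0.0016) and by -0.24 ± 0.06 with DMSO (adjusted p = 0.0046), and with median-of-ratios scaling the second value turned to 0.14 and was not called. Single introns were uneven, and the steady sum does not describe each of them. In J2 RNA they ran from 2.34 RPM (intron 4) to 31.3 RPM (intron 1) with H3B-8800 and from 0.970 to 21.7 RPM with DMSO. In input the same introns marked the range, from 1.32 to 30.6 RPM with H3B-8800 and from 2.55 to 30.8 RPM with DMSO.

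Intronic reads of PSAT1 numbered 23 and 27 in J2 RNA with H3B-8800, 4 and 5 in J2 RNA with DMSO, 43 and 29 in input with H3B-8800, and 19 and 20 in input with DMSO. They were too few for the test of intronic reads, and their ratio to spliced reads rose by 2.28 ± 0.24 in J2 RNA (limma adjusted p = 0.00014) and by 0.78 ± 0.24 in the input (adjusted p = 0.027). In the input the value was -0.95 with median-of-ratios scaling, so the ratio of PSAT1 rose less than that of the typical gene (median 1.69 on depth). Its mean intronic share in the input still rose, from 0.52% with DMSO to 0.94% with H3B-8800. The input value was 0.44 and not called without input H3B-8800 replicate 1, and it was not called without either input DMSO replicate. Intron 5 of 1927 bases (chr9:78306487-78308413, GRCh38, plus strand) had 14 and 4 intronic reads in J2 RNA with H3B-8800 and none in J2 RNA with DMSO. It had 22 and 11 in input with H3B-8800 and 0 and 2 in input with DMSO. Summed over each group this was at least 6.41-fold higher with the drug in J2 RNA, taking 3 reads as the floor of the DMSO group, and 17.2-fold higher in the input (95% exact counting interval 4.40 to 148). PSAT1 has 4 annotated pseudogenes.

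SHMT2, the mitochondrial serine hydroxymethyltransferase that feeds one-carbon metabolism, lost spliced reads and gained intronic reads in both kinds of RNA. Spliced reads were 105 and 93.5 RPM in J2 RNA with H3B-8800 and 228 and 218 RPM in J2 RNA with DMSO. They were 68.9 and 69.2 RPM in input with H3B-8800 and 189 and 196 RPM in input with DMSO. No drug library overlapped a DMSO library, and the fall was -1.17 ± 0.06 in J2 RNA (edgeR adjusted p = 1.6e-07) and -1.48 ± 0.06 in the input (adjusted p = 3.9e-08). Intronic reads numbered 85 and 64 in J2 RNA with H3B-8800 and 16 and 19 in J2 RNA with DMSO. They numbered 83 and 71 in input with H3B-8800 and 13 and 22 in input with DMSO. The rise was 2.18 ± 0.35 in J2 RNA (adjusted p = 2.3e-06) and 2.19 ± 0.35 in the input (adjusted p = 2.4e-06), close to the median of all genes (2.20 and 1.73). With median-of-ratios scaling it was 0.03 and 0.52 and not called. SHMT2 too passed the filter for intronic reads through the drug libraries alone, so a rise on depth was favoured by the selection.

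The ratio of SHMT2 rose beyond the typical gene, by 3.29 ± 0.23 in J2 RNA and 3.65 ± 0.23 in the input (limma adjusted p = 1.6e-05 and 1.3e-05), against medians of 1.67 and 1.69 over all genes. J2 exceeded input in spliced reads by 0.52 ± 0.06 with H3B-8800 (edgeR adjusted p = 8e-05) and by 0.22 ± 0.06 with DMSO (adjusted p = 0.011). The second value fell to 0.18 without J2 DMSO replicate 1 and to 0.19 without input DMSO replicate 1, and was then not called. J2 did not differ detectably from input in the ratio of SHMT2 (adjusted p = 0.13 with H3B-8800 and 0.38 with DMSO).

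The introns of SHMT2 did not share this gain evenly. Intron 4 (chr12:57231914-57232210) held 13 and 20 intronic reads in J2 RNA with H3B-8800 and 1 and 0 in J2 RNA with DMSO. It held 23 and 12 in input with H3B-8800 and none in input with DMSO. The drug groups were 35.2-fold higher in J2 RNA (95% exact counting interval 5.90 to 1434) and at least 12.2-fold higher in the input. Intron 7 (chr12:57232844-57233179), with the most intronic reads of the gene, held 21 and 20 in J2 RNA with H3B-8800 and 7 and 9 in J2 RNA with DMSO, and 35 and 28 in input with H3B-8800 and 4 and 12 in input with DMSO. Its ratio rose by 2.60 ± 0.45 in J2 RNA and 3.74 ± 0.45 in the input (limma adjusted p = 0.0039 and 0.0010); with TMM and median-of-ratios scaling the J2 value, at 0.95 and 0.63, was not called. Intron 11, the last (chr12:57234111-57234233), held 32 and 14 intronic reads in J2 RNA with H3B-8800 and 2 and 2 in J2 RNA with DMSO, and 18 and 24 in input with H3B-8800 and 3 and 5 in input with DMSO. Intron 10 (chr12:57233905-57234002), its neighbour, held no intronic read in any library with the drug and 1 in all with DMSO, over 98 bases against 123. Their sequences are shown because these neighbours, chosen after their values were seen, differed in intronic reads with the drug. Both were read 5′ to 3′ on the plus strand from GENCODE 29 transcripts that retain them (GRCh38), with capitals for the first 2 and last 2 bases of the intron, GT and AG in both.
SHMT2 intron 10: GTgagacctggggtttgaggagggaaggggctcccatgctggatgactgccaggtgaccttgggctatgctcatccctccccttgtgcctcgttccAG
SHMT2 intron 11: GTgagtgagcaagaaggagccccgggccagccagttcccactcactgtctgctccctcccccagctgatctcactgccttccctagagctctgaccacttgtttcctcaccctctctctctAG
Of the 17 bases before the final AG, 14 were C or T in intron 10 and 16 in intron 11, and the G and C content was 61.2% and 59.3%. Annotated transcripts that retain intron 11 or intron 10 exist in GENCODE 29, so some intronic reads can belong to such transcripts.

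MTHFD2, a mitochondrial folate enzyme of the same one-carbon route, lost intronic reads with the drug in both kinds of RNA. Its intronic reads numbered 55 and 50 in J2 RNA with H3B-8800 and 286 and 358 in J2 RNA with DMSO. They numbered 49 and 69 in input with H3B-8800 and 269 and 251 in input with DMSO. Every drug library lay below every DMSO library. The fall was -2.51 ± 0.20 in J2 RNA (edgeR adjusted p = 6.9e-12) and -2.08 ± 0.20 in the input (adjusted p = 3.9e-10), in comparisons where 5.74% and 6.51% of genes fell. On depth, J2 against input was not called with H3B-8800 (adjusted p = 0.35) or with DMSO (adjusted p = 0.51). With DMSO it was called higher in J2 RNA on the other scales, at 0.58 with TMM and 0.60 with median-of-ratios scaling (adjusted p = 0.0017 and 0.0011).

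Most of these reads lay in the first and the last intron of MTHFD2. Intron 1 of 6962 bases (chr2:74198743-74205704, GRCh38, plus strand) held 20 and 25 in J2 RNA with H3B-8800 and 170 and 172 in J2 RNA with DMSO, and 20 and 24 in input with H3B-8800 and 156 and 156 in input with DMSO. Intron 7 of 2212 bases (chr2:74211867-74214078) held 32 and 19 in J2 RNA with H3B-8800 and 116 and 185 in J2 RNA with DMSO, and 29 and 35 in input with H3B-8800 and 98 and 87 in input with DMSO. Both introns fell with the drug in intronic reads, intron 1 by -2.83 ± 0.28 in J2 RNA and -2.76 ± 0.28 in the input, and intron 7 by -2.45 ± 0.30 and -1.47 ± 0.30 (edgeR adjusted p = 4e-13, 1.6e-12, 4.5e-10 and 3.8e-05).

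Spliced reads of MTHFD2 were 34.7 and 36.6 RPM in J2 RNA with H3B-8800 and 55.0 and 48.1 RPM in J2 RNA with DMSO. They were 53.4 and 59.3 RPM in input with H3B-8800 and 58.0 and 58.0 RPM in input with DMSO. The 2 J2 libraries with drug were lowest. The drug effect was -0.53 ± 0.08 in J2 RNA (edgeR adjusted p = 0.0002) and not called in the input on depth (adjusted p = 0.65), and J2 was below input by -0.66 ± 0.08 with H3B-8800 (adjusted p = 9.3e-05). The difference of the drug effects was -0.49 ± 0.11 (adjusted p = 0.0055). Spliced reads were uneven along this gene, from 1.38 RPM (intron 6) to 13.3 RPM (intron 1) in J2 RNA with H3B-8800 and from 0.416 to 22.8 RPM in J2 RNA with DMSO. In input they ran from 0.443 to 23.1 RPM with H3B-8800 and from 1.68 to 24.7 RPM with DMSO. MTHFD2 has 7 annotated pseudogenes and intron 6 overlaps AC006030.1 on the other strand; the part of either in this unevenness was not tested.

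DDIT4 (REDD1), an inhibitor of the growth kinase complex mTORC1, lost spliced reads and gained intronic reads. Spliced reads were 102 and 109 RPM in J2 RNA with H3B-8800 and 133 and 136 RPM in J2 RNA with DMSO. They were 121 and 129 RPM in input with H3B-8800 and 161 and 167 RPM in input with DMSO. The groups compared did not overlap. The difference between drug and DMSO was -0.35 ± 0.06 in J2 RNA (edgeR adjusted p = 0.00028) and -0.40 ± 0.06 in the input (adjusted p = 0.00013); the input value was 0.016 and not called after median-of-ratios scaling. J2 was below input by -0.24 ± 0.06 with H3B-8800 and -0.29 ± 0.06 with DMSO (adjusted p = 0.0044 and 0.0015), and this turned to 0.093 with DMSO on the other scale.

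Intronic reads of DDIT4 numbered 113 and 171 in J2 RNA with H3B-8800 and 31 and 29 in J2 RNA with DMSO. They numbered 212 and 241 in input with H3B-8800 and 110 and 123 in input with DMSO. Within each treatment both J2 libraries lay below both input libraries. The change with the drug was 2.33 ± 0.25 in J2 RNA (edgeR adjusted p = 1.7e-09) and 1.02 ± 0.20 in the input (adjusted p = 4.5e-05), and their difference was 1.31 ± 0.32 (adjusted p = 0.0036). Relative to the typical gene, with median-of-ratios scaling, these values were 0.17 (not called), -0.67 (called lower) and 0.84 (not called). J2 was below input by -0.79 ± 0.20 with H3B-8800 (adjusted p = 0.0018; -0.56 and not called without J2 H3B-8800 replicate 1) and by -2.10 ± 0.25 with DMSO (adjusted p = 3.5e-07).

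The intronic gain of DDIT4 was in intron 1 of 96 bases in the 5′ untranslated region (chr10:72274061-72274156, GRCh38, plus strand), which the annotated transcript DDIT4-203 retains. It held 106 and 158 intronic reads in J2 RNA with H3B-8800 and 27 and 18 in J2 RNA with DMSO, and 175 and 179 in input with H3B-8800 and 50 and 54 in input with DMSO. Intron 2 of 273 bases held 7 and 13 in J2 RNA with H3B-8800 and 4 and 11 in J2 RNA with DMSO, and 37 and 62 in input with H3B-8800 and 60 and 69 in input with DMSO. Intron 1 rose by 2.63 ± 0.29 in J2 RNA and 1.82 ± 0.25 in the input (edgeR adjusted p = 1.3e-11 and 9.7e-09), while intron 2 was not called in either (adjusted p = 0.46 and 0.44). Intron 2 instead separated J2 from input, by -2.41 ± 0.46 with H3B-8800 and -3.24 ± 0.47 with DMSO (adjusted p = 5.3e-05 and 6.4e-07).

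SESN2 (sestrin 2), a leucine-binding protein that restrains mTORC1, had spliced reads of 44.7 and 44.0 RPM in J2 RNA with H3B-8800 and 47.7 and 43.9 RPM in J2 RNA with DMSO. They were 36.3 and 38.2 RPM in input with H3B-8800 and 47.4 and 46.1 RPM in input with DMSO. The 2 input libraries with the drug were lowest. With the drug the change was -0.33 ± 0.06 in the input (edgeR adjusted p = 0.0012; 0.084 and not called with median-of-ratios scaling) and was not called in J2 RNA (adjusted p = 0.54). J2 exceeded input by 0.25 ± 0.06 with H3B-8800 (adjusted p = 0.0076) and was not called with DMSO (adjusted p = 0.7).

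Intronic reads of SESN2 numbered 93 and 84 in J2 RNA with H3B-8800 and 12 and 6 in J2 RNA with DMSO. They numbered 157 and 143 in input with H3B-8800 and 39 and 42 in input with DMSO. SESN2 passed the filter for these reads through the drug libraries alone, so a rise was favoured by the selection. The 4 groups did not overlap. The drug effect was 3.37 ± 0.34 in J2 RNA (edgeR adjusted p = 7.4e-10) and 1.95 ± 0.26 in the input (adjusted p = 1.2e-07); with median-of-ratios scaling it was 1.23, still called, and 0.27, not called. J2 was below input by -0.88 ± 0.24 with H3B-8800 (adjusted p = 0.0036; -0.79 and not called without input H3B-8800 replicate 1) and by -2.30 ± 0.38 with DMSO (adjusted p = 3.4e-05).

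Intron 5 of SESN2, of 564 bases (chr1:28272794-28273357, GRCh38, plus strand), held 52 and 40 intronic reads in J2 RNA with H3B-8800 and 0 and 4 in J2 RNA with DMSO, and 75 and 64 in input with H3B-8800 and 19 and 12 in input with DMSO. It made up 52.0% of SESN2 intronic reads in J2 RNA with H3B-8800 and 46.3% in input with H3B-8800. Its reads rose by 4.54 ± 0.62 in J2 RNA (edgeR adjusted p = 6.8e-09) and 2.21 ± 0.42 in the input (adjusted p = 9.3e-06). Among SESN2 introns, intron 2 had the largest rise of the ratio in the input, 4.05 ± 0.86 (limma adjusted p = 0.0095). It held 16 and 14 intronic reads in input with H3B-8800 and 1 and 0 in input with DMSO, summing to 30 against 1. In J2 RNA it held 5 and 15 with H3B-8800 and 4 and 0 with DMSO, and its ratio was not called (adjusted p = 0.13).

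TRIB3, a pseudokinase that dampens ATF4 and AKT signalling, had more spliced reads in J2 RNA than in input with either treatment. They were 582 and 545 RPM in J2 RNA with H3B-8800 and 356 and 335 RPM in J2 RNA with DMSO. They were 230 and 231 RPM in input with H3B-8800 and 191 and 181 RPM in input with DMSO. The 4 groups did not overlap. J2 exceeded input by 1.29 ± 0.05 with H3B-8800 (edgeR adjusted p = 3.2e-07) and by 0.89 ± 0.05 with DMSO (adjusted p = 2.5e-06). The difference between drug and DMSO was 0.70 ± 0.05 in J2 RNA (adjusted p = 1.9e-06) and 0.31 ± 0.05 in the input (adjusted p = 0.00059). The difference of 0.39 ± 0.08 (adjusted p = 0.0023) was 0.06 and not called with median-of-ratios scaling.

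Intronic reads of TRIB3 were fewer in J2 RNA. They numbered 66 and 43 in J2 RNA with H3B-8800 and 32 and 37 in J2 RNA with DMSO. There were 118 and 144 in input with H3B-8800 and 62 and 76 in input with DMSO. Within each treatment J2 lay below input, by -1.37 ± 0.26 with H3B-8800 (edgeR adjusted p = 9.4e-05) and -1.15 ± 0.29 with DMSO (adjusted p = 0.0027). The drug effect on depth was 0.76 ± 0.30 in J2 RNA (adjusted p = 0.019; 0.37 without J2 H3B-8800 replicate 1 and 0.71 without J2 DMSO replicate 1, neither called) and 0.98 ± 0.25 in the input (adjusted p = 0.00077). Both were called lower relative to the typical gene with median-of-ratios scaling, at -1.40 and -0.70. The median of all genes on depth was 2.20 and 1.73, so these values are rises smaller than the typical one. Intron 3 of 4618 bases (chr20:391580-396197, GRCh38, plus strand) held 40 and 30 intronic reads in J2 RNA with H3B-8800 and 20 and 29 in J2 RNA with DMSO, and 58 and 84 in input with H3B-8800 and 22 and 21 in input with DMSO. With DMSO the lower count in J2 RNA lay in intron 2, with 20 reads summed against 95 in input (ratio 0.19, 95% exact counting interval 0.11 to 0.31). Intron 3 did not share it, with 49 against 43 (1.03, 0.67 to 1.58). With H3B-8800 both introns were lower in J2 RNA, at ratios of 0.30 (intron 2) and 0.45 (intron 3).

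CHAC1, an enzyme that degrades glutathione, lost spliced reads with the drug. They were 9.32 and 9.32 RPM in J2 RNA with H3B-8800 and 12.1 and 11.6 RPM in J2 RNA with DMSO. They were 11.4 and 11.5 RPM in input with H3B-8800 and 16.2 and 17.0 RPM in input with DMSO. The change with the drug was -0.35 ± 0.08 in J2 RNA and -0.53 ± 0.08 in the input (edgeR adjusted p = 0.0043 and 0.00031), the second -0.12 and not called with median-of-ratios scaling. J2 was below input by -0.30 ± 0.09 with H3B-8800 and -0.49 ± 0.08 with DMSO (adjusted p = 0.014 and 0.00083), the second -0.10 and not called on that scale.

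Intronic reads of CHAC1 were almost absent from J2 RNA. None was seen in either J2 library with H3B-8800, and 5 and 2 were seen with DMSO. The input held 19 and 25 with H3B-8800 and 29 and 34 with DMSO. Summed over each group, J2 was at least 15.9-fold lower than input with H3B-8800, taking 3 reads as the floor of the J2 group, and the ratio was 0.10 with DMSO (95% exact counting interval 0.0386 to 0.218). Most lay in intron 2 of 1109 bases (chr15:40954264-40955372, GRCh38, plus strand), with 19 and 20 reads in input with H3B-8800 and 25 and 22 in input with DMSO. The gene did not pass the filter for intronic reads, and its ratio in the input did not change detectably on depth (limma adjusted p = 0.87). Relative to the typical gene, with median-of-ratios scaling, it fell by 1.64 on the log2 scale. The mean intronic share of CHAC1 in the input was 3.69% with DMSO and 3.87% with H3B-8800. In J2 RNA the ratio of CHAC1 was called lower with the drug. With no intronic read in the drug libraries, the size of that fall depends on the 1 added to each count.

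A C/EBP-ATF response element, the kind of composite site to which ATF4 binds, was searched in promoters as TGATGNAA on both strands. RefSeq promoter windows (GRCh38.p14, 250 bases before to 50 after a start) matched 9 of the 10 genes, and SHMT2 had none. The element was present in 2 of the 9, ASNS and CHAC1, against 4.46% of 27305 genes. Both are shown with 20 bases on either side, along the gene's strand, with the element in capitals. In ASNS it lies from 68 to 61 bases before the start (chr7:97872449-97872496, minus strand), and in CHAC1 from 209 to 202 bases before it in the opposite orientation (chr15:40953242-40953289, plus strand).
ASNS promoter: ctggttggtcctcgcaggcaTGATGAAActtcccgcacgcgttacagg
CHAC1 promoter: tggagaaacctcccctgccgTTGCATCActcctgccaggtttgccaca
Such a match describes letters only. On depth both genes lost spliced reads with the drug in both kinds of RNA, but so did DDIT4, which had no element in its windows. With median-of-ratios scaling the CHAC1 fall in the input was -0.12 and not called. The ASNS fall in J2 RNA depended on single libraries, as given above. Whether the element and the falls are linked was not tested.

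Across the 10 genes, none had a called rise of that ratio in J2 over input. The ratio of intronic to spliced reads was lower in J2 RNA for 4 genes with H3B-8800 (ASNS, CHAC1, DDIT3 and TRIB3) and for 7 with DMSO (ATF4, CHAC1, DDIT3, DDIT4, PSAT1, SESN2 and TRIB3). Among all 8248 genes tested, 6.77% differed with H3B-8800, 2.39% higher and 4.38% lower, and 13.4% differed with DMSO, 4.3% higher and 9.14% lower. The median difference of the 10 genes was -0.91 with H3B-8800 and -1.80 with DMSO, against -0.13 and -0.18 over all genes. These counts of 4 and 7 were the same with TMM and with median-of-ratios scaling. The count with H3B-8800 was 0 without either input H3B-8800 replicate and 2 without either J2 H3B-8800 replicate, and that with DMSO was 6 or 7 whichever library was left out but 0 when only the groups compared entered the fit.

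**Figure D2:**
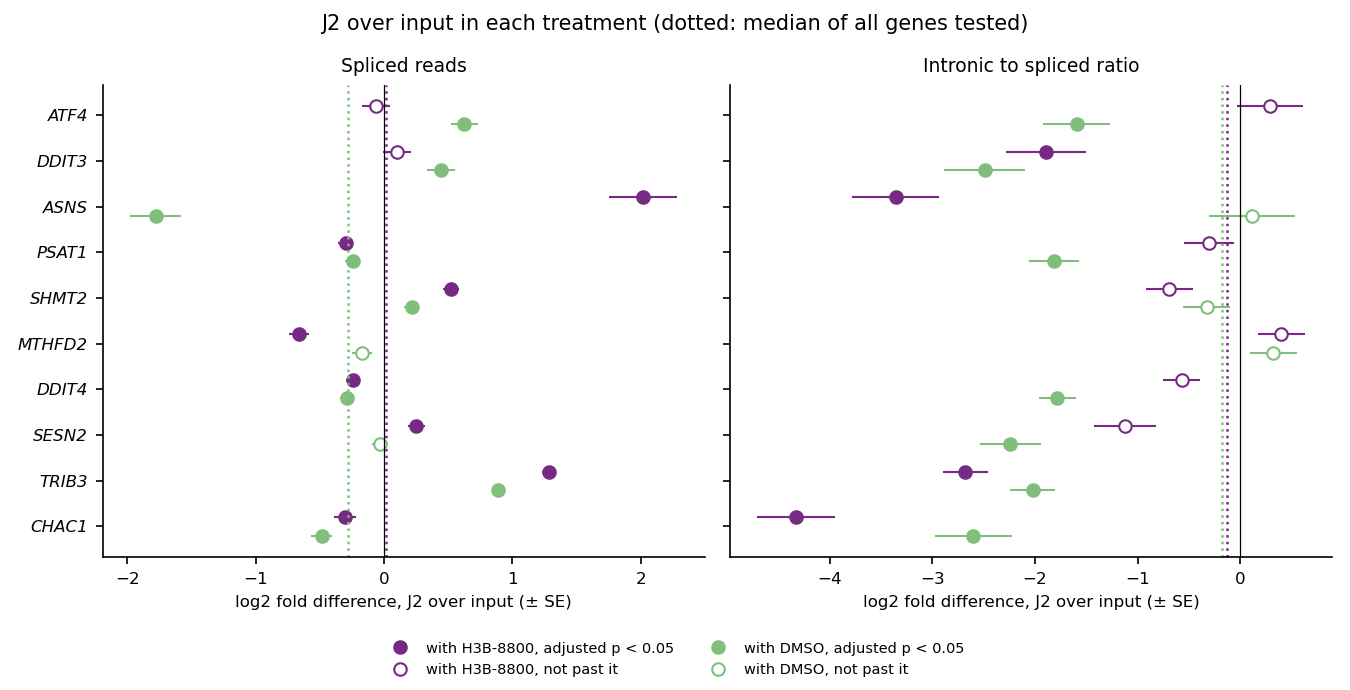
Difference between J2 RNA and input (x axis, log2 fold difference ± SE, J2 over input) of spliced reads (left) and of the intronic to spliced ratio (right) for each gene, with H3B-8800 above and DMSO below in each row. Filled points passed an adjusted p of 0.05 and dotted lines mark the median of all genes; on the right all filled points, 4 with H3B-8800 and 7 with DMSO, lie left of 0.

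For intronic reads themselves, 4 of the 7 genes that passed the filter were lower in J2 RNA with H3B-8800 and 4 with DMSO (DDIT3, DDIT4, SESN2 and TRIB3 in both), and none was higher on depth. With DMSO, MTHFD2 was called higher with TMM scaling (1 higher, 4 lower), with median-of-ratios scaling (1 higher, 3 lower) and with DESeq2 (1 higher, 3 lower). All genes tested gave 26.5% higher and 18.9% lower with H3B-8800 (45.3% in all), and 7.84% higher and 29.4% lower with DMSO (37.2% in all). A gene can pass that filter through 1 group where it is high, so the 7 do not stand for the 10. Spliced reads gave no such direction, with 4 higher and 4 lower of the 10 with H3B-8800 and 4 higher and 4 lower with DMSO, against 28.2% higher and 27.4% lower (55.6% in all) and 16.4% higher and 44.3% lower (60.7% in all). With median-of-ratios scaling the split with DMSO was 6 higher and 1 lower. The comparisons with H3B-8800 and those with DMSO use different libraries, but each shares its libraries with a drug comparison.

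The drug effect in J2 RNA minus the drug effect in the input, which uses all 8 libraries and shares them with every comparison above, was called in spliced reads for 6 of the 10 genes, 4 higher (ASNS, TRIB3, SHMT2 and SESN2) and 2 lower (ATF4 and MTHFD2). Among all genes 49.6% were called, 35.8% higher and 13.8% lower. With TMM scaling 1 was higher and 4 lower, and with median-of-ratios scaling 1 was higher (ASNS) and 5 lower. Intronic reads gave 2 of 7 higher (DDIT4 and SESN2) and 0 lower, against 25.7% and 2.93% of all genes (28.7% in all). With TMM scaling, median-of-ratios scaling or DESeq2 none was higher and 1, MTHFD2, was lower, at -0.95 and -0.91 on the TMM and median-of-ratios scales (adjusted p = 0.010 and 0.013). The ratio gave 1 of 10, ASNS, which was lower, against 1.6% higher and 1.03% lower (2.63% in all). This ASNS call was lost with no filter and with the replicate block, and it depended on single libraries, as given at the end. It rested on few reads, with 34 intronic and 39 spliced reads summed in input with H3B-8800.

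Over the drug comparisons, the ratio rose for 6 genes and fell for 2 (CHAC1 and MTHFD2) in J2 RNA, against 57.6% and 4.69% of all genes (62.3% in all). It rose for 7 and fell for 2 (DDIT3 and MTHFD2) in the input, against 58.7% and 2.04% (60.8% in all). Neither of the 2 DDIT3 introns was called for the ratio on depth, in the drug comparisons or in J2 against input. The CHAC1 fall in J2 RNA rested on 0 and 0 intronic reads with H3B-8800 against 5 and 2 with DMSO. The medians of the ratio were 1.97 in J2 RNA and 1.09 in the input for the 10 genes, and 1.67 and 1.69 for all genes. After median-of-ratios scaling the medians of all genes were -0.12 and -0.04, so values are relative to the typical gene. On that scale 4 were higher and 4 lower in J2 RNA (ATF4, DDIT4, SESN2 and SHMT2 higher). In the input 3 were higher (ASNS, ATF4 and SHMT2) and 5 lower (CHAC1, DDIT3, MTHFD2, PSAT1 and TRIB3). A lower value there can be a smaller rise than that of the typical gene and need not be a fall. ATF4 and SHMT2 were the genes whose ratio rose in both kinds of RNA on depth, TMM and median-of-ratios scales. Of the 7 genes tested for intronic reads, 5 rose and 1 fell in J2 RNA, against 83.7% up and 5.74% down of all genes (89.5% in all), and 5 rose and 2 fell in the input, against 78.3% and 6.51% (84.8% in all). These counts depend on the filter, which acted on all genes alike. ATF4, SHMT2 and SESN2 stayed under 1 RPM of intronic reads in every DMSO library and passed through the drug libraries alone, so their rise was favoured by the selection. DDIT3, which fell in the input, instead needed the input DMSO libraries to pass. Relative to the typical gene, with TMM scaling, median-of-ratios scaling or DESeq2, 2 were called higher and 3 lower in J2 RNA. In the input 1 was higher and 4 lower, and such a lower value need not be a fall. Among all 3992 genes, median-of-ratios scaling gave 1422 up and 1390 down in J2 RNA and 1340 up and 1366 down in the input.

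**Figure D3:**
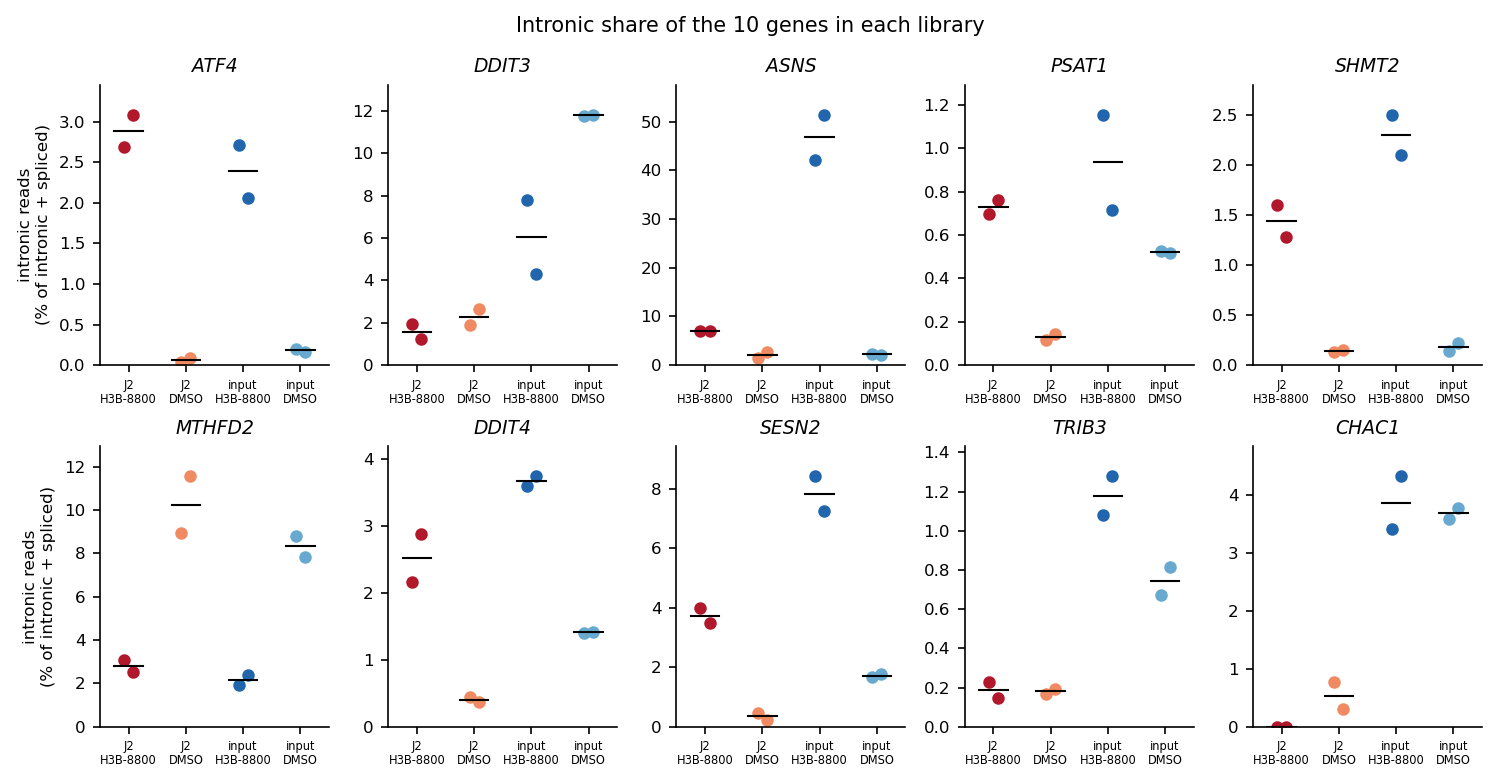
Intronic share of each gene (y axis, intronic reads as a percent of intronic and spliced reads, each panel with its own scale from 0) in the 8 libraries, with lines at the mean of 2. ATF4 shows both drug groups above both DMSO groups, MTHFD2 the reverse, and TRIB3 and CHAC1 both input groups above both J2 groups.

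By single intron, 41 of the 49 listed introns passed the filter for the ratio. With the drug 15 rose and 4 fell in J2 RNA and 20 rose and 1 fell in the input, against 41.5% up and 5.81% down (47.3% in all) and 41.7% up and 2.83% down (44.5% in all) of 41039 introns. With median-of-ratios scaling 5 were called higher and 12 lower in J2 RNA, and 5 higher and 10 lower in the input. The median of all introns was then -0.71 and -0.43 in place of 1.25 and 1.34. With TMM scaling 8 were higher and 10 lower in J2 RNA, and 5 higher and 9 lower in the input. Both scalings take out a shift common to all introns, so a lower value need not be a fall of the intronic share. 32 of the 41 held at least 10 intronic reads over the 8 libraries, a limit set after introns with almost no intronic reads were seen among the calls. Of the 32, 13 rose and 3 fell with the drug in J2 RNA and 16 rose and 1 fell in the input. The share of all introns under this limit was not computed, so the counts of the 32 have no like background. In the input 6 of the 16 were in SESN2 and 5 in SHMT2, and in J2 RNA 5 of the 13 were in SESN2 and 4 in SHMT2. J2 was below input in 3 with H3B-8800 (both tested introns of TRIB3 and intron 2 of CHAC1) and in 4 with DMSO (intron 2 each of DDIT4, TRIB3 and CHAC1, and intron 6 of SESN2), and above it in none. Without the limit of 10 reads the counts were also 3 and 4, of the 41, and 2.79% and 1.9% of all introns tested differed. With the replicate number as a block, or with only the groups compared in the fit, none of the 41 was called in either comparison. These calls of J2 against input were also lost with no filter, and they did not withstand leaving out a library, as given at the end.

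Of the 19 introns with enough reads to test intronic reads alone, J2 was below input in 5 with H3B-8800 and in 7 with DMSO and, on depth, above it in none, against 11.7% higher and 9.2% lower (20.9% in all) and 2.92% higher and 9.77% lower (12.7% in all) of 16226 introns. With DMSO 1 intron was called higher with TMM scaling, median-of-ratios scaling or DESeq2. With the drug, 9 rose and 3 fell in J2 RNA, against 64.2% up and 5.04% down of all introns (69.3% in all), and 10 rose and 2 fell in the input, against 56.8% and 5.39% (62.1% in all). With TMM scaling 6 were called higher and 5 lower in J2 RNA, and 3 higher and 7 lower in the input. With median-of-ratios scaling the counts were 7 higher and 5 lower, and 6 higher and 5 lower. The median of all introns was 2.40 in J2 RNA and 1.82 in the input on depth. It was 0.58 and 0.47 with TMM and 0.86 and 0.64 with median-of-ratios scaling. These scalings thus take out part of a common rise, so a lower value need not be a fall of intronic reads. For the difference of the 2 drug effects, limma called 0 of the 41039 intron ratios, although 7788 had an unadjusted p under 0.05, and edgeR called 0 of the 19 for intronic reads, against 6.0% of all introns.

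**Figure D4:**
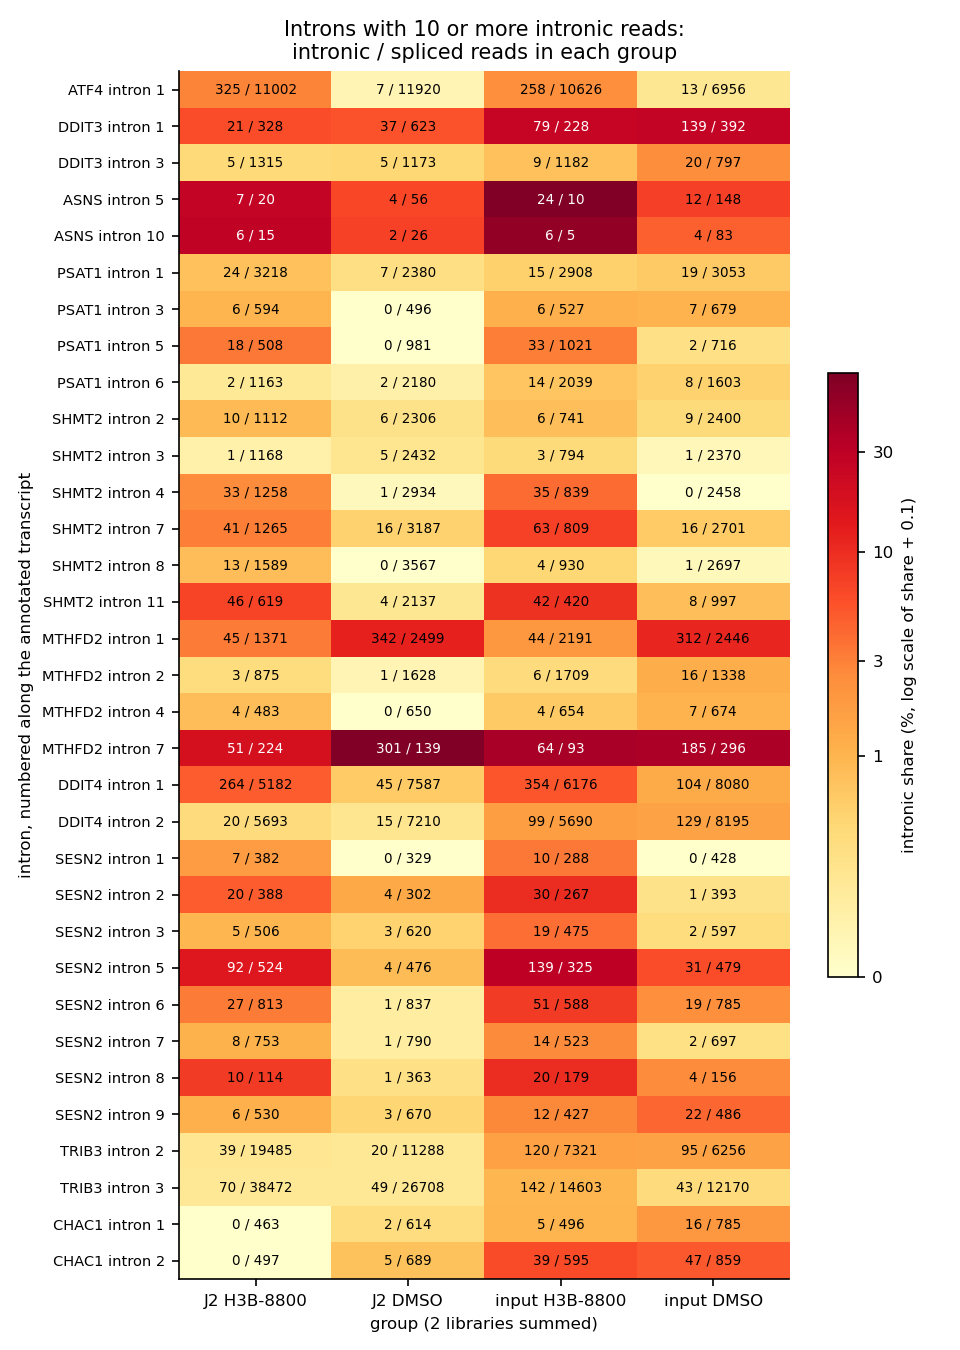
The 33 introns with at least 10 intronic reads (rows) in the 4 groups (columns); each cell gives intronic / spliced reads summed over 2 libraries, and the colour is the intronic share in percent on a log scale of share + 0.1. MTHFD2 introns 1 and 7 are darkest with DMSO within J2 RNA, whereas ATF4 intron 1, SHMT2 introns 4, 7 and 11 and SESN2 intron 5 are darkest with H3B-8800.

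Levels were compared between genes as spliced RPM per listed intron, since a gene with more introns gathers more reads. TRIB3 was highest in every group, at 282 ± 13 RPM per intron in J2 RNA with H3B-8800 and 173 ± 7 in J2 RNA with DMSO, and at 115 ± 0.5 in input with H3B-8800 and 93.1 ± 3.5 in input with DMSO (SD, n = 2 each). ATF4 came next in J2 RNA with either treatment, while its range overlapped that of TRIB3 in input with H3B-8800, and DDIT4 stood between them in input with DMSO. ASNS was lowest in every group, at 0.186 ± 0.052 in J2 RNA with H3B-8800 and 0.283 ± 0.009 in J2 RNA with DMSO, and at 0.046 ± 0.009 in input with H3B-8800 and 0.971 ± 0.011 in input with DMSO. Neighbours with overlapping ranges were PSAT1 with SHMT2 and MTHFD2 with SESN2 in J2 RNA with H3B-8800, MTHFD2 with SHMT2 and SHMT2 with DDIT3 in input with H3B-8800, and CHAC1 with MTHFD2 in input with DMSO.

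The genes whose pattern was most like ATF4 over the 8 libraries, by Euclidean distance of centred log2(spliced RPM + 0.5) among 8461 genes, were SRP14 (distance 0.222), WSB2 (0.252) and FHL1 (0.252). SRP14, a protein of the signal recognition particle, had 204 and 176 RPM in J2 RNA with H3B-8800 and 182 and 178 RPM in J2 RNA with DMSO, and 180 and 208 RPM in input with H3B-8800 and 110 and 115 RPM in input with DMSO. Genes like ASNS lay farther off, with METTL5 at 0.754 and ME2 at 0.939.

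3 lists of other genes of the pathway were read beside the 10. Of 22 amino acid and one-carbon targets of ATF4, 20 were tested for spliced reads. In J2 RNA with the drug 3 rose and 13 fell, and in the input 4 rose and 14 fell, with medians of -0.47 and -0.85. Of all genes tested 34.6% rose and 39.5% fell in J2 RNA (median -0.03), and 21.8% rose and 48.7% fell in the input (median -0.38), on the depth scale used for all 3 lists. PYCR1, which makes proline, had 51.9 and 49.8 RPM in J2 RNA with H3B-8800 and 123 and 126 RPM in J2 RNA with DMSO, and 59.9 and 61.5 RPM in input with H3B-8800 and 148 and 145 RPM in input with DMSO. Its fall was -1.29 ± 0.05 and -1.27 ± 0.05 (edgeR adjusted p = 3.3e-08 and 2.9e-08). ASS1, of arginine synthesis, fell by -1.64 ± 0.06 and -1.30 ± 0.06, and PHGDH, the first enzyme of serine synthesis, by -1.01 ± 0.05 and -0.84 ± 0.05. SLC7A1, a carrier of cationic amino acids, rose by 0.79 ± 0.09 and 0.84 ± 0.08.

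Of 21 genes for the kinases, eIF2 and its phosphatase, 19 were tested, and 8 rose and 8 fell in J2 RNA while 2 rose and 12 fell in the input, with medians of -0.02 and -0.58 beside the -0.03 and -0.38 of all genes. PPP1R15A (GADD34), the subunit that reverses eIF2 phosphorylation, had 149 and 146 RPM in J2 RNA with H3B-8800 and 69.7 and 69.1 RPM in J2 RNA with DMSO, and 90.2 and 89.9 RPM in input with H3B-8800 and 65.4 and 63.0 RPM in input with DMSO. It rose by 1.09 ± 0.05 and 0.49 ± 0.05 (edgeR adjusted p = 6.6e-08 and 1.3e-05). EIF2AK4 (GCN2), the kinase that senses uncharged tRNA, fell by -1.45 ± 0.14 in the input (adjusted p = 1.1e-05), and its ratio rose by 4.05 ± 0.23 in J2 RNA and 4.41 ± 0.23 in the input (limma adjusted p = 6.3e-06 and 6.5e-06).

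Of 30 other transcription factors and stress targets, 22 were tested, and 7 rose and 12 fell in J2 RNA while 4 rose and 14 fell in the input, with medians of -0.35 and -0.56 beside the same -0.03 and -0.38. The tRNA synthetase genes MARS and WARS fell in both, MARS by -1.68 ± 0.06 and -1.50 ± 0.06 and WARS by -1.51 ± 0.08 and -1.32 ± 0.08 (edgeR adjusted p from 2.9e-08 to 4.2e-07). WARS intronic share averaged 47.9% in J2 RNA with H3B-8800 and 1.22% in J2 RNA with DMSO, and 41.8% in input with H3B-8800 and 0.945% in input with DMSO, and its ratio rose by 6.18 ± 0.23 and 6.21 ± 0.23. The secreted stress factors GDF15 and VEGFA rose in the input, by 0.44 ± 0.11 and 0.62 ± 0.07. With H3B-8800 the ratio was lower in J2 RNA than in input for 0 of the 20 amino acid genes, 3 of the 19 kinase and eIF2 genes and 3 of the 22 other genes, and it was higher for 1 amino acid gene, against 2.39% higher and 4.38% lower of all genes. With DMSO it was lower for 4, 2 and 5, and higher for 1 amino acid gene, against 4.3% higher and 9.14% lower of all genes.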

How the data were processed

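The 8 libraries gave 1 table each, with 2 per group, and replicate numbers follow the labels. The deposited tables hold raw read counts per listed intron, and the authors' RPKM of the smaller count; they have no header. The values show that the second count is never below the first, so the first was taken as reads inside the intron and the excess as spliced reads. Per the submitters' processing notes, reads were handled with HISAT2 2.0.4, with hg38 and mm10 both named as builds, and the counting program is not given in the sources used here. Introns matched GENCODE 29 (GRCh38) for 138299 of 138731 introns of linked genes. Of 142224 introns, 18 lacking 2 values were left out.

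The depth behind the deposited RPKM, 47000000 to 57000000 reads, was the library size. Reads were tested with edgeR 4.0.16 (quasi-likelihood) and the ratio with limma 3.58.1 (empirical Bayes, variance trend over log2 mean total reads), all 4 groups in 1 fit, in R 4.3.3, with Benjamini-Hochberg adjustment over all features and a limit of 0.05. The scripts ran in Python 3.11.15 and were tested on simulated data. Genes needed 1 RPM in 2 libraries (8461 spliced, 3992 intronic). Ratios needed a mean of 1 RPM per gene (8248) or 0.5 RPM per intron (41039), and intronic reads 0.1 RPM per intron (16226). 5 comparisons were made.

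All 10 genes were named. Introns were named for the most intronic reads or the largest called ratio change, and list genes for the smallest p; other introns, SHMT2 introns 10 and 11 among them, were chosen after their values were seen. For ATF4 and ASNS the genes with the nearest pattern were named, of which 1 is not reported here. Members, lists and tests were chosen with earlier results of these data known. Alternatives were TMM, median-of-ratios and table-total scaling, other filters, a pseudocount of 0.5, DESeq2 1.42.0, a replicate block, only the groups compared, introns free of other genes' exons, and each library left out. A variance trend over intronic reads and a minimum of 10 intronic reads were added after seeing the data. Counting intervals (95%, exact) and floors (3 reads over a group) cover counting error only, since no molecular identifiers were used. P-values rest on the spread between libraries labelled biological replicates, 2 per group, pooled over the 4 groups and shared over all genes.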

Additional observations from a re-analysis of the deposited data

Results flagged for a closer look

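These results were picked out because the drug effect in J2 RNA differed from that in the input by the interaction test, with an adjusted p under 0.05. In spliced reads (edgeR, log2, effect in J2 RNA minus effect in the input) ASNS differed by 3.80, ATF4 by -0.69, MTHFD2 by -0.49, SESN2 by 0.28, SHMT2 by 0.30 and TRIB3 by 0.39. In intronic reads DDIT4 differed by 1.31 and SESN2 by 1.43. In the intronic to spliced ratio (limma) ASNS differed by -3.47. The values for SESN2, SHMT2 and TRIB3 in spliced reads and for DDIT4 and SESN2 in intronic reads were not called with TMM or median-of-ratios scaling. That of ASNS in the ratio was not called in 7 of the 8 fits that left out 1 library.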

How the results depend on the processing

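Of 3239 recomputed values of 191 single results, 2939 kept their side of the threshold and direction, 194 were no longer called, 53 became called and 53 turned sign. The causes were not tested. Every turn of sign came with another scaling. For intronic reads and the ratio, another scaling takes out a shift shared by all genes, so a negative value can be a rise below the typical one. Values follow as log2 differences in the order TMM, median-of-ratios, DESeq2. With drug against DMSO in the input, spliced reads gave 0.24, 0.37 and 0.37 for MTHFD2, and 0.016 and 0.016 for DDIT4 and 0.084 and 0.084 for SESN2 (both median-of-ratios and DESeq2). Intronic reads gave -0.64, -0.67 and -0.67 for DDIT4 and -0.68, -0.70 and -0.70 for TRIB3. The ratio, which DESeq2 cannot test, gave -0.15 and -0.32 for DDIT4, -0.89 and -1.06 for TRIB3, -1.47 and -1.64 for CHAC1 and -0.78 and -0.95 for PSAT1, with -0.24 and -0.38 for TRIB3 intron 3 and -1.36 and -1.50 for CHAC1 intron 2. With drug against DMSO in J2 RNA, intronic reads of TRIB3 gave -1.41, -1.40 and -1.40, its intron 3 -1.23 and -0.95, and SHMT2 intron 7 -0.39, -0.11 and -0.11. The ratio gave -1.63 and -1.79 for TRIB3, and with median-of-ratios alone -0.15 for ASNS and -1.85 for DDIT3 intron 1. For J2 against input with DMSO, spliced reads gave 0.23, 0.35 and 0.35 for SESN2 and 0.018, 0.14 and 0.14 for PSAT1, and with median-of-ratios and DESeq2 0.093 and 0.093 for DDIT4 and 0.21 and 0.21 for MTHFD2. The difference of drug effects in spliced reads gave, with those 2, -0.29 and -0.29 for DDIT4, -0.053 and -0.053 for SESN2 and -0.029 and -0.029 for SHMT2.

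Counts of called members moved by over 1.5 times as follows. A mean of at least 2 RPM left 2 and 2 of the 7 genes called for intronic reads in the drug comparisons (J2 RNA and input), 1 and 1 for J2 against input (H3B-8800 and DMSO) and 1 for the difference of effects, and 0 introns in each of the 4 comparisons of intron reads; fewer features were tested. The difference of effects in intronic reads was called for 1 gene, MTHFD2, which was lower, with TMM, median-of-ratios or DESeq2. In the ratio per gene it was called for 0 with no filter, 0 with the replicate block and 3 with a trend over intronic reads, and J2 against input with DMSO gave 0 with only the groups compared. In the ratio per intron, J2 against input gave 0 and 0 (H3B-8800 and DMSO) with no filter, with only the groups compared and with the replicate block, 6 and 7 with a trend over intronic reads, and 2 with DMSO at a pseudocount of 0.5. The difference of effects gave 1 with TMM, 1 with median-of-ratios and 2 with the trend. In intron reads DESeq2 called 7 (J2 RNA, 3 higher and 4 lower) and 6 (input, 2 higher and 4 lower), and the difference of effects gave 1 with TMM and 1 with median-of-ratios. Leaving out 1 library gave 1 to 2 genes for the difference of effects in intronic reads, 0 to 2 in the ratio, and 0 to 5 genes for the ratio of J2 against input with H3B-8800. Per intron it gave 12 to 23 for the ratio with drug in the input, 0 to 0 for J2 against input with either treatment, 3 to 5 for intron reads of J2 against input with H3B-8800, and 0 to 1 for their difference of effects.

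The labels do not tie equal replicate numbers to a shared culture, and deviations of equal numbers correlated at -0.105 to 0.0999, so pairing was not shown; the replicate block moved no other count of members by over 1.5 times. Low intronic counts limit ASNS, CHAC1 and PSAT1 most.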
